A study of Mus musculus with 11 samples.

Results

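Genes that mark Purkinje cells, the output neurons of the cerebellar cortex, were followed in the RNA fragments bound by FMRP in mouse brain. The set holds the 8 genes Rora, Car8, Calb1, Pcp2, Dner, Foxp2, Inpp5a and Auts2, taken by symbol from a table of 30986 rows, and all 8 have a row. Tissue was taken at postnatal day 13, frozen and ground, RNA and protein were crosslinked at 254 nm (3 exposures, 400 mJ each), and FMRP was then immunoprecipitated with the RNA fragments it held. FMRP is the RNA-binding protein whose loss causes Fragile X syndrome. The comparison has 2 cerebellum samples, 3 cortex samples and 4 hippocampus samples, and cortex and hippocampus together are called forebrain below. Strain, genotype and sex are not given by the labels, and no treatment separates the regions. Each sample is whole tissue of a region. Purkinje cells are a minor cell type of the cerebellum and are not cells of the forebrain.

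Purkinje cells receive excitation from granule cell axons and from climbing fibres and inhibit the deep cerebellar nuclei. Inositol trisphosphate (IP3), made in them after synaptic input, opens the receptor ITPR1, which releases calcium from the endoplasmic reticulum. Several genes of the set act on this route: CAR8 binds ITPR1 and lowers its affinity for IP3, INPP5A removes a phosphate from IP3 and so ends the signal, and CALB1 buffers calcium. PCP2 modulates inhibitory G proteins, DNER is a transmembrane protein of Purkinje cell dendrites that can signal to glia through Notch, and RORA, FOXP2 and AUTS2 act on transcription. RORA is required for Purkinje cell maturation in mice. FOXP2, AUTS2, CALB1 and RORA are also known in forebrain neurons.

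The libraries were shallow, and this set lay low in them. Totals ran from 11898 to 197382 counts, 292836 in cerebellum and 389506 in forebrain, so that 1 count was worth 84.0 counts per 1000000 of the library total (CPM) in the smallest library and 5.07 CPM in the largest. Cortex 3, hippocampus 3 and hippocampus 4 stood apart, with 12.2 to 12.6% of counts on predicted gene names against 3.1 to 7.49% in the other 6 samples. Marker genes matched the labels of cerebellum and forebrain: 16 granule cell markers summed to 6910 and 8339 CPM in the cerebellum samples and to 756.4 to 1296 CPM in forebrain, while 12 telencephalic excitatory neuron markers summed to 1175 and 1320 CPM in the cerebellum samples and to 1597 to 4159 CPM in forebrain. Between cortex and hippocampus, 11 hippocampal neuron markers summed to 651 to 824.6 CPM in cortex and 1031 to 2972 CPM in hippocampus, without overlap, and 14 cortical layer markers to 1302 to 2259 CPM in cortex and 1094 to 1466 CPM in hippocampus, with overlap. No input library was analysed here, so more RNA in the tissue cannot be told apart from more FMRP on that RNA. Within cerebellum, the number of Purkinje cells cannot be told apart from the RNA per cell.

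In these data 4 of the 8 genes, Inpp5a, Dner, Car8 and Pcp2, had a higher level in both cerebellum samples than in any of the 7 forebrain samples. Both cerebellum samples were above all forebrain samples in 3.37% of the 13656 rows with at least 10 counts. Among the 9669 rows whose summed counts lie in the range of the set, 14 to 127, the share was 3.09%. In cortex 1, 2 and 3 and hippocampus 4 and 5, 3 counts would be 53.78 to 252.1 CPM. That lies above Pcp2 in both cerebellum samples (41.9 and 45.6 CPM) and Car8 in cerebellum 1 (52.4 CPM). A count of 0 in those shallow libraries therefore cannot show a lower level of these 2 genes. The 0 counts of Inpp5a and Dner lay in cortex 3 and hippocampus 4, where 3 counts would be 252.1 and 136.7 CPM. Both floors lie above Inpp5a in cerebellum 2 (132 CPM) and Dner in cerebellum 1 (105 CPM), so the same limit applies to those 0 counts. Rora was higher in cerebellum on average but overlapped with forebrain, and Calb1, Foxp2 and Auts2 overlapped widely. In the edgeR fit across all genes only Rora and Auts2 passed the filter on low counts, and 0 of these 2 was called at an adjusted p under 0.05, beside 7.67% of all 1720 rows tested and 3.9% called higher and 3.78% called lower. The 4 genes without overlap were all among the 6 that the fit could not test.

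**Figure D1:**
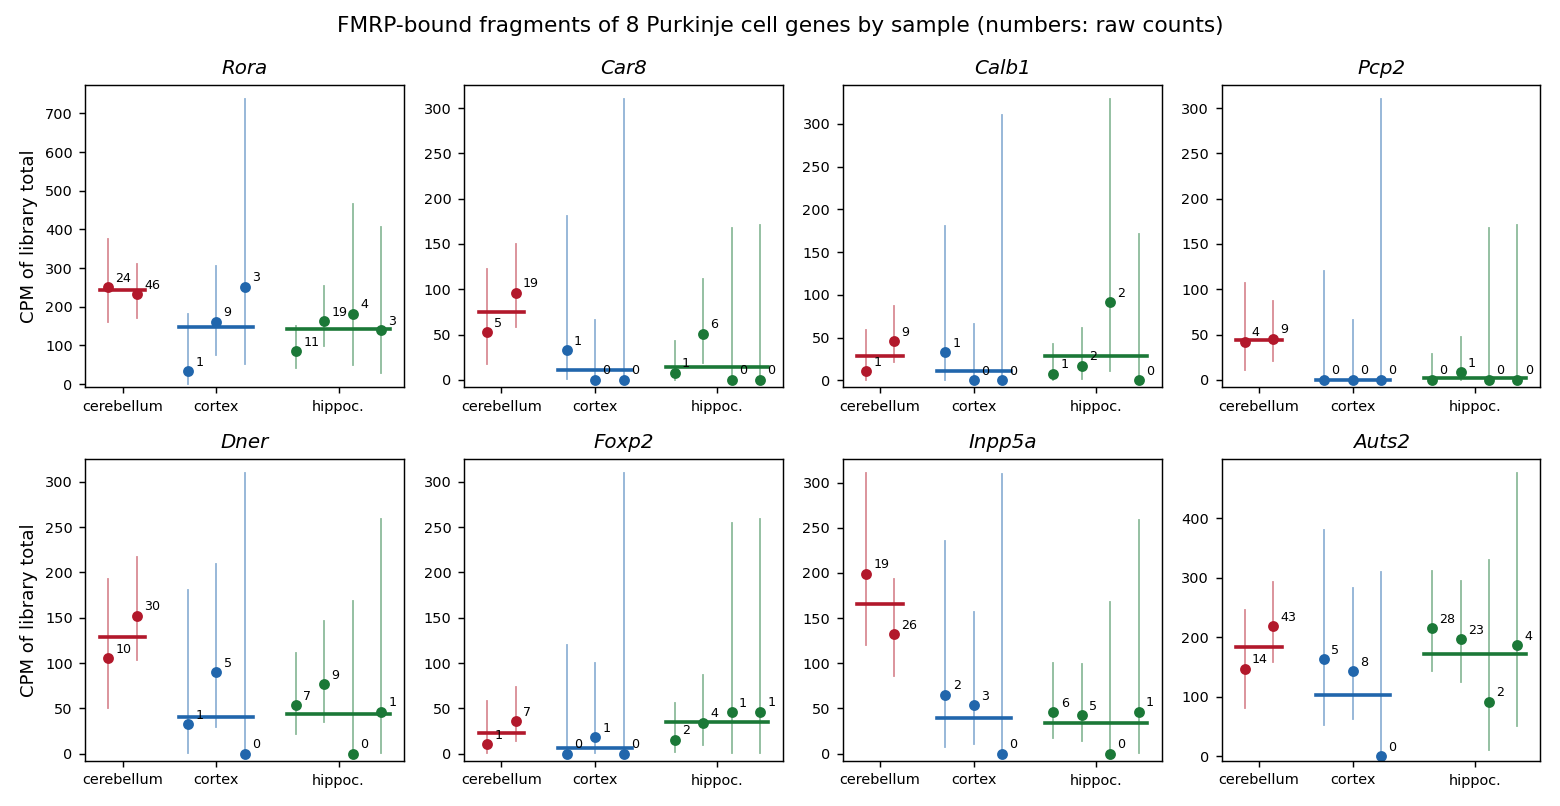
Level of each gene in CPM of the library total (vertical axis) in the 2 cerebellum, 3 cortex and 4 hippocampus samples, with the raw count beside each point, the exact 95% counting interval as a thin line and the region mean as a bar. Inpp5a, Dner, Car8 and Pcp2 stand higher in both cerebellum samples than in every forebrain sample, and the intervals of the shallow libraries are wide.

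Inpp5a, the gene of the IP3 phosphatase, had a higher level in both cerebellum samples than in every forebrain sample. It had 19 and 26 counts in cerebellum 1 and 2, which is 199 and 132 CPM. In forebrain it had 65.1, 53.8 and 0 CPM in cortex 1, 2 and 3 and 46.0, 42.6, 0 and 46.4 CPM in hippocampus 1+2, 3, 4 and 5, from 17 counts in all. The lowest cerebellum sample thus lay at 132 CPM and the highest forebrain sample at 65.1 CPM. Their exact 95% counting intervals overlapped, at 86.0 to 193 CPM in cerebellum 2 and 7.88 to 235 CPM in cortex 1. The 0 values in cortex 3 and hippocampus 4 had upper limits of 310 and 168 CPM. The means were 165 ± 47.6 CPM in cerebellum (SD, n = 2) and 36.3 ± 25.8 CPM in forebrain (SD, n = 7), a difference of 129 CPM with p = 0.0278 in a two-sided exact permutation test, unadjusted. That is the smallest p that the 36 possible arrangements allow. With 8 genes tested it could not survive a Bonferroni adjustment, which multiplies p by the number of tests. Pooled over samples, the level in cerebellum was 3.52 times that in forebrain, with an exact 95% interval of 1.98 to 6.56 that covers counting error only.

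Car8, the inhibitor of ITPR1, had 5 and 19 counts in cerebellum 1 and 2 (52.4 and 96.3 CPM). In forebrain it had 1 count in cortex 1, 1 in hippocampus 1+2, 6 in hippocampus 3 (51.1 CPM) and 0 in the other 4 samples. Cerebellum 1 and hippocampus 3 were therefore almost level. The means were 74.3 ± 31.0 CPM in cerebellum (SD, n = 2) and 13.1 ± 20.6 CPM in forebrain (n = 7; p = 0.0278, exact permutation test, unadjusted). The pooled ratio of cerebellum to forebrain was 3.99 (interval 1.73 to 10.3).

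Pcp2, long used as a Purkinje cell marker, was close to absent from forebrain libraries. It had 4 and 9 counts in the cerebellum samples (41.9 and 45.6 CPM) and a single count in forebrain, in hippocampus 3. No count fell on it in cortex, where 3 counts over the whole group would be 30.5 CPM. Its pooled level in cerebellum was 1.46 times that floor, a value that leaves out the counting error of the cerebellum counts. The means were 43.8 ± 2.61 CPM in cerebellum (SD, n = 2) and 1.22 ± 3.22 CPM in forebrain (n = 7; p = 0.0278, exact permutation test, unadjusted). The pooled ratio to forebrain was 17.3, with an interval of 2.6 to 735 set by that count. Exons of Pcp2 share 941 bases with Pet100, a mitochondrial assembly factor gene on the opposite strand. The sources used here do not say whether counting used strand, and fragments of the overlapping exons cannot be told apart. The Pet100 row itself had 3 counts in cerebellum and 6 in forebrain.

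Dner had 10 and 30 counts in the cerebellum samples (105 and 152 CPM). In forebrain it had 32.6, 89.6 and 0 CPM in cortex 1, 2 and 3 and 53.7, 76.7, 0 and 46.4 CPM in hippocampus 1+2, 3, 4 and 5. Cortex 2, at 89.6 CPM from 5 counts, came nearest to cerebellum. The means were 128 ± 33.4 CPM in cerebellum (SD, n = 2) and 42.7 ± 34.7 CPM in forebrain (n = 7; p = 0.0278, exact permutation test, unadjusted), and without cortex 1 this p became 0.0714. The pooled ratio was 2.31 (interval 1.35 to 4.05).

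**Figure D2:**
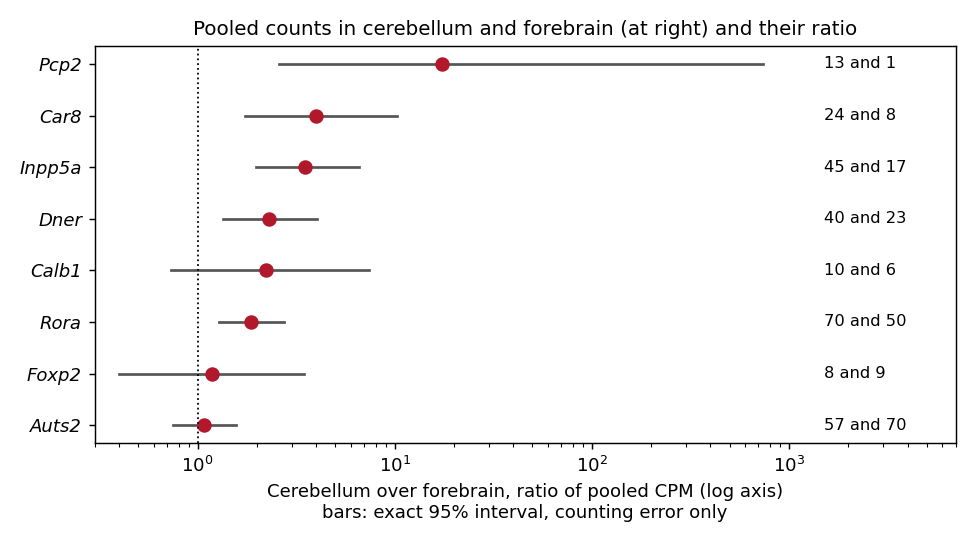
Ratio of pooled CPM in cerebellum to that in forebrain (horizontal log axis) for each gene, with the exact 95% interval of the counts and the summed counts of cerebellum and forebrain at the right. The intervals of Pcp2, Car8, Inpp5a, Dner and Rora lie above 1, from 1.28 upwards at their lower ends, and those of Calb1, Foxp2 and Auts2 include 1.

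The separation of these 4 genes depends on the scale. With the library totals replaced by TMM-scaled totals, the scaling of the edgeR fit, Pcp2 and Inpp5a still had both cerebellum samples above all forebrain samples (p = 0.0278 each, exact permutation test, unadjusted), beside 2.73% of rows with at least 10 counts and 2.28% of rows in the count range of the set. For Car8 and Dner p was 0.0556 on this scale. The TMM factor of hippocampus 3 is 0.6442, which raises it to 79.4 TMM-scaled CPM for Car8, above cerebellum 1 at 52.4, and to 119 for Dner, above cerebellum 1 at 105. Hippocampus 3 is also among the samples with a high share of predicted genes, and its part in these results was not tested.

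**Figure D3:**
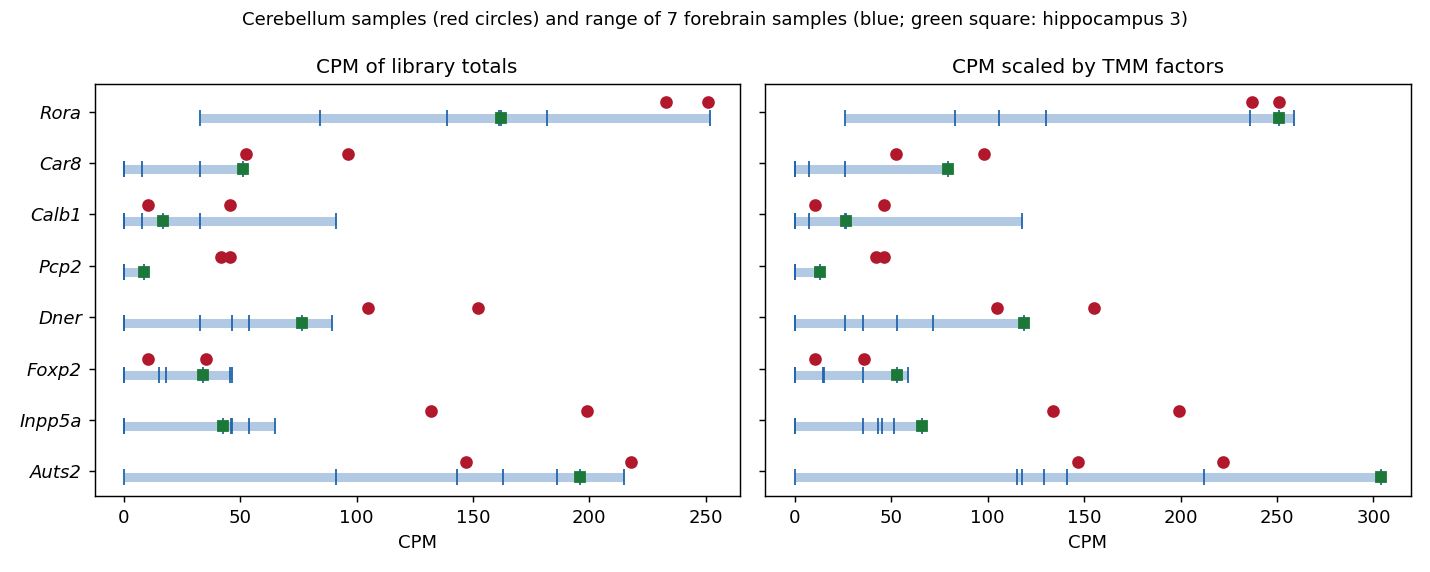
Level of each gene in the 2 cerebellum samples (red circles) and the range over the 7 forebrain samples (blue bar with a tick per sample; green square, hippocampus 3), in CPM of library totals at the left and of TMM-scaled totals at the right. On library totals 4 genes are separated from forebrain, and on the TMM scale Pcp2 and Inpp5a are, since hippocampus 3 moves up.

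Rora, which encodes a nuclear receptor, overlapped between the regions through cortex 3 alone on library totals, and through cortex 3 and hippocampus 3 on the TMM scale. Rora had 24 and 46 counts in cerebellum 1 and 2 (251 and 233 CPM). In forebrain it had 32.6, 161 and 252 CPM in cortex 1, 2 and 3 and 84.4, 162, 182 and 139 CPM in hippocampus 1+2, 3, 4 and 5. The cortex sample at 252 CPM rests on 3 counts in the smallest library, with an exact 95% interval of 52.0 to 737 CPM. Cerebellum averaged 242 ± 13 CPM (SD, n = 2), cortex 149 ± 110 CPM (n = 3) and hippocampus 142 ± 42.2 CPM (n = 4), so cortex and hippocampus did not differ beyond their spread. The log2 fold change of cerebellum over forebrain was 1.13 (SE 0.59, adjusted p = 0.303, edgeR). Over cortex alone it was 1.43 (SE 0.80, adjusted p = 0.43, edgeR), where 4.59% of all rows were called, 2.21% higher and 2.38% lower. Over hippocampus alone it was 0.82 (SE 0.55, adjusted p = 0.493, edgeR), where 6.4% were called, 3.08% higher and 3.31% lower. Auts2 was not called in either comparison. Leaving out single samples moved the first value between 0.29, without cerebellum 1, and 2.05, without cerebellum 2. Without hippocampus 3, hippocampus 4 and cortex 3, and without the block, it was 1.39 (SE 0.42, adjusted p = 0.0412, edgeR), the one alternative in which a gene of the set passed. The samples left out there hold the highest forebrain levels of Rora (252, 182 and 162 CPM), so leaving them out lowers the forebrain mean. Of the 1989 rows tested there, more were called than with all samples.

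Auts2, which is broadly expressed by developing neurons, had a pooled ratio of cerebellum to forebrain of 1.08 (interval 0.75 to 1.56), the nearest to 1 of the set. It had 147 and 218 CPM in the cerebellum samples, 163, 143 and 0 CPM in cortex 1, 2 and 3 and 215, 196, 91.1 and 186 CPM in hippocampus 1+2, 3, 4 and 5. Cerebellum and hippocampus each had 57 counts from nearly equal totals, and the pooled ratio of these regions was 0.994 (interval 0.676 to 1.46). The log2 fold change of cerebellum over forebrain was -0.17 (SE 0.58, adjusted p = 0.949, edgeR), and it was 0.32 without the block (adjusted p = 0.8). Cortex stood at 102 ± 88.9 CPM (SD, n = 3) and hippocampus at 172 ± 55.2 CPM (n = 4), and the log2 ratio of cortex to hippocampus was -0.59 (SE 0.67, adjusted p = 0.999, edgeR). No gene of the 1720 was called in that comparison, where 68 had an unadjusted p under 0.05 and DESeq2 called 1.

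Foxp2, a transcription factor of Purkinje cells and of deep-layer cortical neurons, had 1 and 7 counts in the cerebellum samples and 9 counts in forebrain. Cerebellum averaged 23.0 ± 17.7 CPM (SD, n = 2), cortex 5.98 ± 10.3 CPM (n = 3) and hippocampus 35.4 ± 14.5 CPM (n = 4). The ratio of pooled levels in cerebellum and forebrain was 1.18, with an interval of 0.397 to 3.45. Between cortex and hippocampus the exact permutation p was 0.0857, where the 35 possible arrangements allow no p under 0.0286. Of its 9 forebrain counts 8 were in hippocampus, which holds 291103 of the 389506 forebrain counts.

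Calb1, known in Purkinje cells and in hippocampal granule cells, was at the limit of detection. It had 1 and 9 counts in the cerebellum samples (10.5 and 45.6 CPM), 1 count in cortex and 5 in hippocampus, of which 2 in hippocampus 4 made 91.1 CPM. Neither the order of the regions nor a difference could be read at this depth, and the pooled ratio of cerebellum to forebrain had an interval of 0.73 to 7.42.

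Samples that share a numeric code in their titles were compared within that code. With the code of cerebellum 1, which is shared by cortex 1 and hippocampus 1+2, Inpp5a had 199 CPM in cerebellum and 55.6 CPM in forebrain. With that of cerebellum 2, shared only by hippocampus 3, it had 132 CPM in cerebellum and 42.6 CPM in hippocampus 3. Car8 had 52.4 against 20.1 CPM and 96.3 against 51.1 CPM in the same order, and Dner 105 against 43.1 CPM and 152 against 76.7 CPM. Pcp2 had 41.9 against 0 CPM and 45.6 against 8.52 CPM, and Rora 251 against 58.5 CPM and 233 against 162 CPM. Foxp2 had 10.5 against 7.67 CPM (1 against 2 counts) and 35.5 against 34.1 CPM (7 against 4 counts). Its 7.67 CPM is the mean of 15.3 CPM in hippocampus 1+2 and 0 in cortex 1, so no direction can be read for Foxp2. By these mean levels the 6 genes were higher in cerebellum within both codes on library totals, beside 20.9% of rows with at least 10 counts. On the TMM scale 4 were, beside 13.3% of rows, since in the second code Rora then had 237 CPM in cerebellum and 251 CPM in hippocampus 3, and Foxp2 36.1 CPM in cerebellum and 52.9 CPM in hippocampus 3. Auts2 had 147 against 189 CPM in the first code and 218 against 196 CPM in the second. Calb1 was likewise lower in cerebellum in the first code (10.5 against 20.1 CPM) and higher in the second (45.6 against 17.0 CPM). Every cerebellum library has a title that begins with s, while cortex 2, cortex 3, hippocampus 4 and hippocampus 5 have titles that begin with p, and what the letters and codes stand for is not given by the labels.

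With the filter lowered to rows with at least 10 counts, a setting chosen after seeing the data so that all 8 genes could be tested, 0 of the 8 passed, beside 0.132% of all rows. The log2 fold changes of cerebellum over forebrain were then 3.58 for Pcp2 (SE 1.63), 1.86 for Inpp5a (SE 0.76), 1.55 for Rora (SE 0.79), 1.36 for Calb1 (SE 1.31), 1.14 for Car8 (SE 1.04), 1.11 for Dner (SE 0.78), 0.94 for Foxp2 (SE 1.28) and 0.19 for Auts2 (SE 0.79), each with adjusted p = 0.999 in edgeR. Without the block Inpp5a had 2.16 (adjusted p = 0.0529) and Pcp2 4.16 (adjusted p = 0.0588), just short of the threshold that 0.688% of rows passed. The other 6 genes had adjusted p from 0.144 for Car8, at 2.53, to 0.792 for Foxp2, at 0.89, in that edgeR fit. The median over all rows was 0.28 and 0.48 in these fits, and the values are not relative to these medians. Against hippocampus alone in the same pair of fits 0 of the 8 passed either, beside 0.117% and 0.344% of rows, and Inpp5a came nearest (2.03 with adjusted p = 0.713, and 2.18 with adjusted p = 0.197 without the block, edgeR). Against cortex alone 0 of the 8 passed, beside 0.0% and 0.256% of rows, and between cortex and hippocampus 0 passed, beside 0.0% of rows in each fit.

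On the scale of CPM per kilobase of annotated exon, the order of the genes changed. Inpp5a led in cerebellum with 29.3 ± 8.43 CPM per kilobase (SD, n = 2), followed by Dner with 26.8 ± 6.98, Pcp2 with 23.9 ± 1.43, Car8 with 19.3 ± 8.05 and Rora with 18.5 ± 0.994, which do not differ from their neighbours beyond the spread. Auts2 had 7.96 ± 2.2, Calb1 5.79 ± 5.12 and Foxp2 1.41 ± 1.08 CPM per kilobase. In forebrain Rora led with 11.1 ± 5.39 CPM per kilobase (n = 7), and Pcp2 was lowest with 0.666 ± 1.76. The genes differ widely in size: Pcp2 spans 2.175 kilobases, of which 84.0% is exon, and Auts2 spans 1106 kilobases, of which 2.07% is. The sources used here do not say whether fragments from introns were counted. On GRCm38 in GENCODE, Inpp5a lies on chromosome 7 from 139389109 to 139579652 (plus strand), Dner on chromosome 1 from 84369839 to 84696221 (minus), Car8 on chromosome 4 from 8143362 to 8239041 (minus) and Pcp2 on chromosome 8 from 3623371 to 3625545 (minus). Rora lies on chromosome 9 from 68653786 to 69388246 (plus), Auts2 on chromosome 5 from 131437333 to 132543344 (minus), Foxp2 on chromosome 6 from 14901349 to 15441977 (plus) and Calb1 on chromosome 4 from 15881264 to 15908064 (plus).

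RORA binds the motif AGGTCA, usually after an AT-rich stretch, and 2 of the genes with higher levels in both cerebellum samples carry it near their start, so these windows are shown. RefSeq promoter windows of GRCm38.p6, 250 bases before to 50 after a start, were matched for 4 of the 8 genes, Dner, Inpp5a, Pcp2 and Rora. AGGTCA, searched on both strands, occurred in windows of Dner and Pcp2 and in none of Inpp5a or Rora, in 4 of their 8 windows, beside 16.3% of all 32851 windows. The extended form TAGGTCA, which contains AGGTCA, occurred in none of these windows, beside 2.61% of all. Capitals mark AGGTCA, on the strand of the gene.
Dner, chr1:84696172-84696471, minus strand: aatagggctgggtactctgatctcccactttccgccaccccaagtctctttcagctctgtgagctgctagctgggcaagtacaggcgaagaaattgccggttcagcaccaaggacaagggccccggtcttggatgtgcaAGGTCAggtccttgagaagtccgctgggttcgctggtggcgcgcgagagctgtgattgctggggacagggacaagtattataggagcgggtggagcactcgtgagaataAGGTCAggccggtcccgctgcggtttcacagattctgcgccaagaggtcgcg
Pcp2, chr8:3625498-3625797, minus strand: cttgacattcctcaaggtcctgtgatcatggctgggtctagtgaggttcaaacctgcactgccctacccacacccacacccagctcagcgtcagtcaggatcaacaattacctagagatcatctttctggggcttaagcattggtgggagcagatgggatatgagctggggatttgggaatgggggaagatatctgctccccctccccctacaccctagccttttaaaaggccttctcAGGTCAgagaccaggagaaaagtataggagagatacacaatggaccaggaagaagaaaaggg
The Pcp2 window belongs to the outermost of its 4 listed starts; of the other 3 windows, 1 overlaps it and holds the same site, 1 holds another site from 26 bases before its own start, and 1 holds none. The Dner window holds AGGTCA from 111 and from 2 bases before the start, and the Pcp2 window from 12 bases before it. A match is a run of letters, and no measurement here bears on binding of RORA.

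Other Purkinje cell genes were better covered than the set. Of 27 further genes, chosen with earlier results of these data known, 10 passed the filter, 4 rose and 0 fell in cerebellum against forebrain, beside 3.9% and 3.78% of all rows, with a median log2 fold change of 1.47, against a median of 0 over all rows. These counts leave out genes that are not reported here. The genes called were Rgs8, Itpr1, Cacna1g and Cacna1e. Rgs8, a regulator of G protein signalling, rose by 2.53 on the log2 scale (SE 0.86, adjusted p = 0.0425, edgeR), with 239.5 ± 2.01 CPM in cerebellum (SD, n = 2) and 27.86 ± 19.8 CPM in forebrain (n = 7). Cacna1g and Cacna1e, calcium channel genes, rose by 1.8 and 1.7 on the same scale (adjusted p = 0.00569 and 0.0173, edgeR). Against cortex 1 of the 10 rose and 0 fell, beside 2.21% and 2.38% of all rows, and against hippocampus 4 rose and 0 fell, beside 3.08% and 3.31%.

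On the IP3 route, on which CAR8 and INPP5A act, 2 of 14 tested genes were called. Itpr1, the IP3 receptor that CAR8 binds, rose by 2.33 on the log2 scale (SE 0.52, adjusted p = 0.000479, edgeR), with 2708 ± 111 CPM in cerebellum (SD, n = 2) and 574.5 ± 289 CPM in forebrain (n = 7). Homer2, a postsynaptic scaffold gene, rose by 2.34 (SE 0.73, adjusted p = 0.0203, edgeR), with 227.6 ± 78.2 CPM in cerebellum and 102.9 ± 92.8 CPM in forebrain. Its cerebellum samples did not both lie above all forebrain samples. The log2 value comes from the fit with TMM scaling and the block, while the CPM are of library totals, where the means lie closer together. Of 29 genes of IP3 signalling 14 were tested, 2 rose and 0 fell, beside 3.9% and 3.78% of all rows, and the median was -0.03, against 0 over all rows. These counts leave out genes not reported here, so they are not a result about the whole route. Ryr2 and Atp2a2, which release calcium from and return it to the endoplasmic reticulum, were not called. They had 788 ± 3.27 and 483 ± 90.6 CPM in cerebellum against 781 ± 518 and 534 ± 256 CPM in forebrain. Other uncalled genes of the list were not level. Ryr3 and Synj1 had 79.9 and 222 CPM in cerebellum against 232 and 424 CPM in forebrain, with both cerebellum samples below all forebrain samples. Plcb4 and Inpp5k had 160 and 38.9 CPM against 65.4 and 4.63 CPM, with both above. These 6 genes are named outside the naming rule. The calls of Rgs8, Itpr1, Cacna1g, Cacna1e and Homer2 were all lost without cerebellum 1 (edgeR adjusted p from 0.286 to 0.953), without cerebellum 2 (0.14 to 0.843) and without cortex 1 (0.176 to 0.79). Of these 5 calls, 3 were lost without hippocampus 1+2 (adjusted p up to 0.423), 4 without hippocampus 5 (up to 0.162), 2 without cortex 2 (up to 0.0786), that of Cacna1e without hippocampus 4 (0.107) and that of Rgs8 without hippocampus 3 (0.169). The log2 fold changes stayed positive when any 1 sample was left out, between 2.24 and 2.78 for Rgs8, 1.99 and 3.09 for Itpr1, 1.62 and 1.89 for Cacna1e, 1.46 and 2.56 for Cacna1g, and 1.18 and 3.47 for Homer2. With a cerebellum sample left out, the remaining one is assumed to vary like the other groups.

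**Figure D4:**
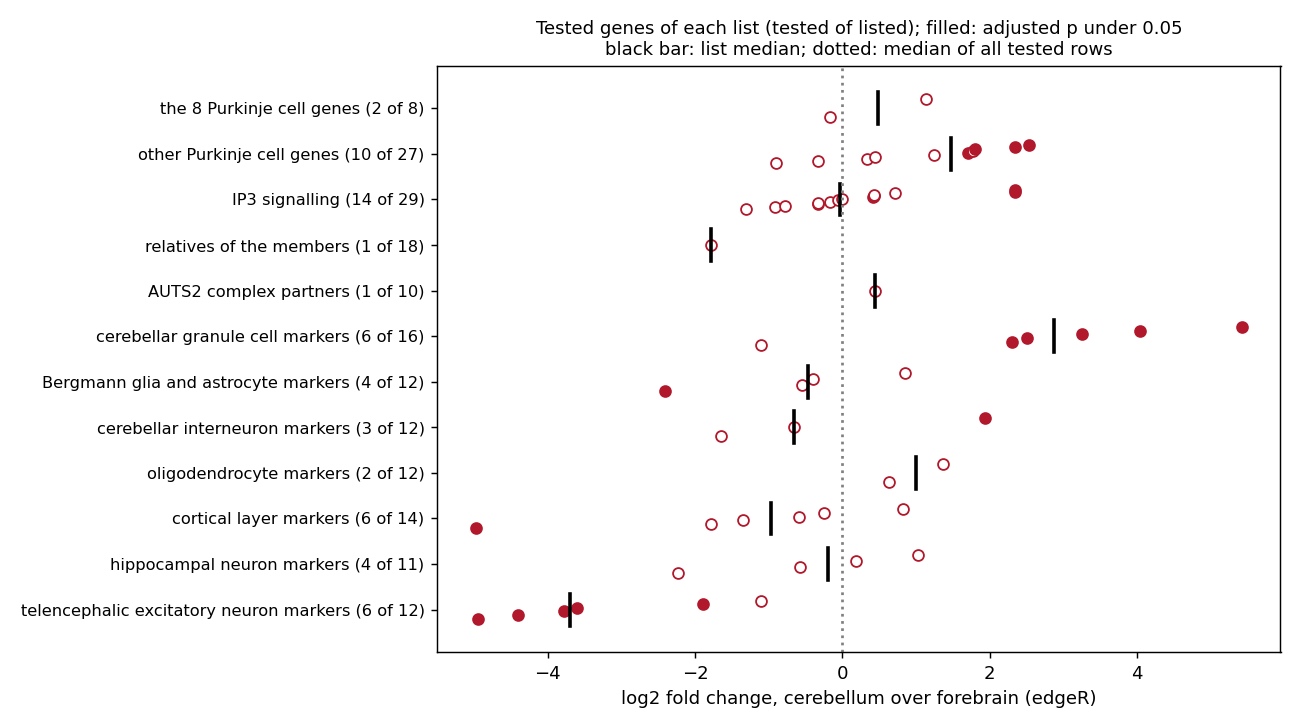
Log2 fold change of cerebellum over forebrain from edgeR (horizontal axis) for the tested genes of each list (rows), with called genes filled, list medians as black bars and the median of all rows as a dotted line. The set has 2 tested genes, neither filled, and the other Purkinje cell genes have 4 filled points, all to the right of 0.

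Relatives and partners of the set were mostly under the filter. Of 18 relatives, which include Rorb, Car10, Foxp1 and Fbrsl1, only Foxp1 was tested, at -1.78 on the log2 scale (SE 0.68, edgeR, adjusted p = 0.0892). It had 58.9 ± 24.1 CPM in cerebellum and 207 ± 95.9 CPM in forebrain, and both cerebellum samples were below all forebrain samples, as in 1.01% of rows with at least 10 counts. Of 10 partners of AUTS2 in its Polycomb complex and beyond, only the acetyltransferase gene Ep300 was tested (0.44, SE 0.48, adjusted p = 0.772). Of 20 Notch pathway genes, the route through which DNER can act, 0 were tested, and they summed to 1205 and 1297 CPM in the cerebellum samples and to 681.2 to 1021 CPM in forebrain.

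Markers of other cell types also differed between the regions. Over all tested rows 3.9% rose and 3.78% fell, with a median of 0. Of rows with at least 10 counts, 3.37% had both cerebellum samples above all forebrain samples, and 1.01% had both below. Of 16 granule cell markers 6 were tested and 5 rose, with a median of 2.88, and Fat2, an atypical cadherin, led with 5.42 (SE 0.62, adjusted p = 6.65e-15, edgeR), followed by Grm4, Chn2, Cadps2 and Zic1. Of 12 cerebellar interneuron markers 3 were tested and 1 rose, Reln, by 1.93 (edgeR adjusted p = 0.0037), with a list median of -0.66. Reln is also known in cerebellar granule cells. Gad2, the gene of a GABA-synthesising enzyme, not called (edgeR adjusted p = 0.156) and named after its values were seen, had 58.8 ± 38.7 CPM in cerebellum and 197 ± 65.8 CPM in forebrain, with both cerebellum samples below all forebrain samples. The list summed to 1142 and 1216 CPM in the cerebellum samples against 504.3 to 1100 CPM in forebrain, with Npy at 0 in cerebellum. Of 12 Bergmann glia and astrocyte markers, 11 of them in the table, 4 were tested and 1 fell, Slc1a2, by 2.41 on the log2 scale (edgeR adjusted p = 0.00511), with a list median of -0.47. Other genes of the list lay the other way: Gdf10, Gfap and Aqp4, not called and named after their values were seen, had 98.0, 198 and 188 CPM in cerebellum and 17.8, 57.2 and 69.4 CPM in forebrain, with both cerebellum samples above all forebrain samples. Of 12 oligodendrocyte markers 2 were tested and 0 were called, and their sum was 1037 and 1424 CPM in the cerebellum samples against 252.1 to 1022 CPM in forebrain. Of 12 telencephalic excitatory neuron markers 6 were tested and 5 fell, namely Nrgn, Kcnh3, Camk2a, Chrm1 and Grin2b. Neurod2 and Nptx1 of that list, not tested, had 134 and 293 CPM in cerebellum and 41.7 and 68.9 CPM in forebrain, with both cerebellum samples above all forebrain samples. Of 14 cortical layer markers 6 were tested and 1 fell, Bcl11b, while Cux1, tested and not called (edgeR adjusted p = 0.492), and Rspo1, not tested, had 324 and 31.3 CPM in cerebellum and 176 and 2.31 CPM in forebrain, again with both cerebellum samples above. These 4 genes were also named after their values were seen. Of 11 hippocampal neuron markers 4 were tested and 0 were called. The part of cell type makeup in the levels of the 8 genes was not tested.

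Across the 9 samples, the tested rows whose log2 CPM was most like that of Rora were Tanc1 (Pearson r = 0.946), Epb41 (0.933) and Celf4 (0.929), where 95% of rows had r under 0.623. For Auts2 they were Qk (0.981), Setbp1 (0.97) and Tsc22d1 (0.96), where 95% of rows had r under 0.869. These are descriptions over samples that share libraries and depth.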

How the data were processed

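Fragments bound by FMRP were counted per gene symbol in 11 libraries. The authors deposited whole-number counts, used here as deposited; the submitters' processing notes name mm10, Bowtie 0.12.7 and Picard. The counting program, annotation, strand setting, duplicate removal and filters were not given in the sources used here. A library with conflicting region labels entered alternatives only. Hippocampus 1 and 2 did not differ beyond the sampling noise (p = 0.191, chi-square test of 1873 rows, statistic over its degrees of freedom 1.03, against 1.51 to 22.1 in the other 13 pairs of a region) and were summed and counted as 1 sample, leaving 9. Nothing says that samples come from separate animals, so p-values measure spread that may be technical.

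CPM are counts per 1000000 of the library total. Genes were tested with edgeR 4.0.16 (R 4.3.3, quasi-likelihood), with TMM scaling, filterByExpr by region, the title code as a block and 4 residual degrees of freedom, with Benjamini-Hochberg adjustment over 1720 rows. SE is the size of the log2 value over the root of F. Single genes were tested by two-sided exact permutation of mean CPM, 8 tests per comparison. Intervals are exact binomial ones at 95% and, like the floor of 3 counts, cover counting error only, since amplified fragments are not independent molecules. The 8 genes, the lists, the alternatives and the naming rule (all 8 genes, the called list genes of largest change up to 6 per list, the 3 rows most like each tested gene) were chosen with earlier results of these data known. Some genes of the lists of other Purkinje cell genes and of IP3 signalling, called in either direction among them, are not reported here, and list counts and medians leave them out.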

Additional observations from a re-analysis of the deposited data

Results flagged for a closer look

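In hippocampus, the group with 4 samples, the gap between 1 sample and the next filled most of the range for 3 of the 8 genes. For Car8, hippocampus 3 had 51.1 CPM from 6 counts, while the other hippocampus samples had 7.67 CPM or 0. For Pcp2, hippocampus 3 had 8.52 CPM and the other 3 samples had 0; with a single count in the group the gap fills the whole range by construction, and the samples do not differ beyond counting error. For Inpp5a, hippocampus 4 had 0 CPM, while the others lay between 42.6 and 46.4 CPM; 3 counts in hippocampus 4 would be 136.7 CPM, so this 0 is within counting error. Chance flags about 1 in 20 groups of evenly measured values, and that rate does not hold for counts this sparse.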

How the results depend on the processing

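The number of genes called in cerebellum against forebrain (132) was 87 with DESeq2, 54 with library totals, 1 with no filter (Gabra6), 85 with s titles only, 253 without hippocampus 3, hippocampus 4 and cortex 3 and without the block, and 18 with rows of at least 10 counts; without the replicate block it was 156. Against cortex alone (79) these were 43, 16, 0, 5, 201 and 0; it was 35 with rows of at least 10 counts and no block, 130 with the conflicting library as cortex and no block, and 114 without the block. Against hippocampus alone (110) the count was 70 with DESeq2, 45 with library totals, 0 with no filter, 187 with 10 separate libraries, 16 with rows of at least 10 counts and 47 with those and no block. Cortex against hippocampus (0) gave 1 gene, Zbtb20, with DESeq2, with 10 separate libraries and with the conflicting library as cortex. Leaving out 1 sample gave 2 to 176 genes for cerebellum against forebrain (81 without hippocampus 1+2), 0 to 117 against cortex, 5 to 191 against hippocampus (42 without hippocampus 1+2), and 0 to 1 for cortex against hippocampus. The causes were not tested.

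Of the 8 genes, the 4 at the smallest permutation p became 2 on the TMM scale, and 0 without hippocampus 3, hippocampus 4 and cortex 3 or with s titles only, where p cannot go under 0.0667 and 0.1; leaving out 1 sample gave 0 to 4, with 0 where a cerebellum sample was left out and p cannot go under 0.125. Auts2 turned positive against forebrain with no filter (0.18), without the block (0.32), with s titles only (0.03), without hippocampus 3, hippocampus 4 and cortex 3 (0.28), and with rows of at least 10 counts (0.19, and 0.66 with no block), and against hippocampus with no filter (0.02) and with rows of at least 10 counts and no block (0.27). Its leave-one-out values were -0.2 to 0 against forebrain and -0.02 to 0.52 against cortex; its difference in CPM was -8.97 with s titles only. Rora in cortex against hippocampus was 0.06 without those 3 samples and -0.96 to 0.09 with 1 sample left out. The Foxp2 difference was -1.95 CPM on the TMM scale and -12.3 to 12.7 CPM with 1 sample left out (-1.04 CPM without hippocampus 1+2), and that of Calb1 -10.7 to 24.4 CPM. Rora kept its direction over forebrain in all 20 alternatives. Samples of the same title code correlated in their deviations with a median r of 0.132 over 8 pairs (-0.067 to 0.484), and of different codes with -0.05 over 18. The deviations of cerebellum 1 and 2 from their shared mean are mirror images (r of 0.149 and -0.149 with cortex 1). The pairs are therefore not independent, and how strongly the code pairs samples cannot be read from these medians. The floor of 3 counts is 252.1 CPM in the smallest library and 15.2 CPM in the largest.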

Other observations

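The library with conflicting region labels, cortex in its title and hippocampus in its tissue label, held 30344 counts. Counting it as cortex would give the number of cortex libraries in the series' design text. It had 2 counts on Auts2 (65.9 CPM), 1 each on Rora, Calb1, Foxp2 and Inpp5a (33.0 CPM each), and 0 on Car8, Pcp2 and Dner.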
